A study of Homo sapiens with 2 samples.

Results

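The 46 genes described here are type I interferon-stimulated genes, and all 46 were found by their gene names on the arrays, where 60 of 34127 gene probes belonged to them, out of 25940 gene names in all. By role they fall into 8 groups, namely the IFIT and IFI44 genes, the OAS family, GTPases, the ISG15 system, membrane proteins, the PARP and DTX3L genes, other effectors and transcription factors. Both MKN74 and MKN45 are established human gastric cancer cell lines, grown in RPMI1640 with serum. Cells of each line were electroporated with SET7/9 siRNA or with negative control siRNA at 50 nM, and RNA was taken after 48 hrs. On each of 2 two-colour Agilent arrays, 1 per cell line, the RNA with SET7/9 siRNA carried Cy5 and the RNA with negative control siRNA carried Cy3. The dyes were not swapped, so that dye and siRNA cannot be told apart within an array, and there were no replicate arrays, so that no spread between cultures was measured. One slide carried both arrays, and the scan time was shared. The 4 RNA samples are therefore MKN74 with either siRNA and MKN45 with either siRNA, each from 1 labelled extract.

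Type I interferons bind a receptor of IFNAR1 and IFNAR2, whose kinases JAK1 and TYK2 phosphorylate STAT2. With IRF9, STAT2 is part of the ISGF3 complex, which binds the interferon-stimulated response element in the promoters of the target genes. The products of the target genes block viruses at entry, translation and release, and several of them are also expressed by carcinoma cells with no infection. SET7/9 is a lysine methyltransferase that acts on histone H3 and on other proteins.

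The response element was searched in the promoters of the members because it is the sequence through which these genes are known to be regulated, and the arrays' ratios can be read beside it. Promoters of 36 of the 46 members were matched in RefSeq (GRCh38.p14), each covering 250 bases before and 50 bases after a start. The core searched was GAAANNGAAA on either strand, and overlapping matches were counted separately. It was present in at least 1 promoter of 24 of the 36 members, or 66.7%, against 4.38% of 27305 genes with a promoter in the table. Within the bases before the start, it was present in 23 members, or 63.9%, against 3.71% of all genes. Promoter stretches of 6 members follow, from the part before the start, 5′ to 3′ on the strand of the gene, and capitals mark the matches to the core. They are examples and not the full set, and a match is a description of the letters and not evidence of binding.

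IFIT1, chr10:89392482-89392554, plus strand: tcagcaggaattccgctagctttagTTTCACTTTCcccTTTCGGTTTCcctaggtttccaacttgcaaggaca

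ISG15, chr1:1013359-1013424, plus strand: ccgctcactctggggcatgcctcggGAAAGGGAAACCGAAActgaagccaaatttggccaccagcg

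BST2, chr19:17405720-17405785, minus strand: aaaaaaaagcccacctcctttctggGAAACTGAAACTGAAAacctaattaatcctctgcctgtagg

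IFI27, chr14:94110603-94110675, plus strand: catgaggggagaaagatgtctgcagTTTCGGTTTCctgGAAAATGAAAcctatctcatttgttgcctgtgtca

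IFI6, chr1:27672251-27672373, minus strand: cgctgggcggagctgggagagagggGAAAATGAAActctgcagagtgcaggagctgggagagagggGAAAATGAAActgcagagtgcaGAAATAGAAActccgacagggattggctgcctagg

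PARP14, chr3:122680785-122680838, plus strand: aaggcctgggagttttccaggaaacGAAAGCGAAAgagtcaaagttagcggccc

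In ISG15 and BST2 the 2 matches overlapped, whereas in IFIT1 and IFI27 they lay next to each other, on the same strand in IFIT1 and on opposite strands in IFI27. IFI6 held 3 separate matches, 2 of them inside copies of the same repeated letters.

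On the arrays, a signal was called well above background by the scanner software, and a probe was kept in a cell line if this held for at least 1 of the dyes. One probe represented each gene, chosen by detection and brightness and not by its ratio. The log2 ratio is that of SET7/9 siRNA over negative control siRNA, and its error is the software's own estimate for a spot, without any spread between replicates. SETD7, the gene of SET7/9, was read first. In MKN74 its signal was 369 with the negative control and 90.1 with SET7/9 siRNA, a log2 ratio of -2.03 ± 0.28 (spot error, 1 array). In MKN45 the signals were 197 and 51.2, a log2 ratio of -1.95 ± 0.28. A second SETD7 probe was at 0.24 and -0.23. All 6 epithelial markers examined were measured in both dyes in both lines. Plasmacytoid dendritic markers were measured in both dyes for 0 of 2 in either line, immune markers for 1 of 5 in MKN74 (CD14) and 2 of 5 in MKN45 (PTPRC and CD14), fibroblast markers for 1 of 4 (COL1A1) and endothelial markers for 1 of 3 (CDH5).

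In MKN74, 39 of the 46 interferon-stimulated genes had both dyes well above background, SAMD9 and XAF1 had Cy5 alone, and GBP1, GBP2, SAMD9L, TRIM22 and EPSTI1 had neither. In MKN45, 36 had both, RSAD2 had Cy5 alone, and IFI44, IFI44L, GBP1, SAMD9, SAMD9L, TRIM22, IFI16, XAF1 and IRF7 had neither. The 34 genes measured in both dyes on both arrays carry the comparisons between the cell lines. GBP1, an interferon-induced GTPase, SAMD9L and TRIM22 had no signal well above background in any of the 4 RNA samples.

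With SET7/9 siRNA, the interferon-stimulated genes were mostly lower in MKN74 and scattered around 0 in MKN45. In MKN74, 34 of the 39 genes with both dyes measured were below 0, and the median log2 ratio was -0.22, beside -0.0058 over all genes measured that way. In MKN45, 13 of 36 were below 0 and the median was 0.07, beside 0.0014 over all genes. Of 41 genes in MKN74 with at least 1 dye measured, 5 were at least 1.5-fold lower, where 1.73% of all genes were, and 0 were at least 1.5-fold higher, where 3.79% were. With both dyes required, 4 of 39 were lower, where 1.44% of all genes were, and 0 were higher, where 0.705% were. In MKN45, 0 of 37 were at least 1.5-fold lower, where 1.92% of all genes were, and 2 were higher, where 4.66% were. With both dyes required, 0 of 36 were lower (1.51% of all genes) and 2 were higher (0.827% of all genes). After normexp background correction and loess the counts were smaller, with 1 gene at least 1.5-fold lower in MKN74 (IFIT2) and 0 higher in MKN45. That correction added an offset of 50 to both dyes, which draws the ratios of dim probes toward 0. In MKN74, 22 genes were lower by more than their own spot error and 1 was higher, beside 12.3% and 10.8% of all genes. In MKN45, 1 gene was lower and 7 were higher by more than the spot error, beside 11.5% and 12% of all genes.

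**Figure D1:**
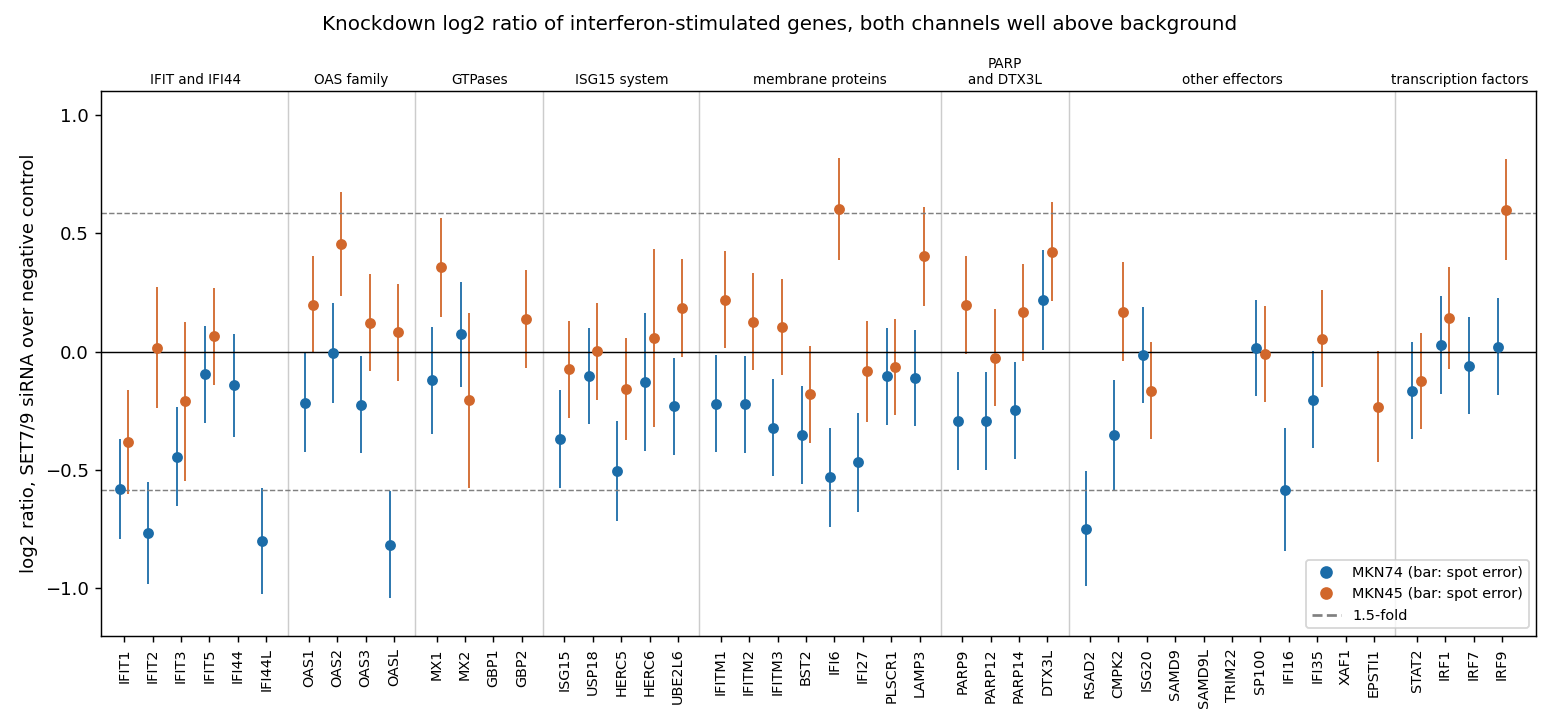
Log2 ratio of SET7/9 siRNA over negative control siRNA (y axis) for each interferon-stimulated gene with both dyes well above background, grouped by role (x axis), in MKN74 (blue) and MKN45 (orange). Bars are the spot errors of single arrays and dashed lines mark 1.5-fold. In MKN74, 34 of 39 points lie below 0, and 4 lie past the lower dashed line; in MKN45, IFI6 and IRF9 lie past the upper one.

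The IFIT genes encode proteins that bind viral RNA and hinder its translation, and in MKN74 all 6 genes of the IFIT and IFI44 group were below 0, with a median of -0.51. The probe of IFIT2, on chr10:91068397-91068456 of GRCh37, had signals of 1179.9 with the negative control and 693 with SET7/9 siRNA in MKN74, and 37.8 and 38.3 in MKN45. The log2 ratios were -0.77 ± 0.22 and 0.02 ± 0.26, and the second IFIT2 probe gave -0.93 ± 0.24 in MKN74 and no signal well above background in MKN45. IFI44L had signals of 189 and 109 in MKN74, a log2 ratio of -0.80 ± 0.22, and neither dye was well above background in MKN45. IFIT1 had signals of 3267 and 2185 in MKN74 and of 113 and 86.7 in MKN45. Among the probes chosen for the 34 genes it was the one below 0 by more than its spot error in both lines, at -0.58 ± 0.21 and -0.38 ± 0.22. IFIT3 was at -0.44 and -0.21, IFIT5 at -0.10 and 0.06, and IFI44, measured in MKN74 alone, at -0.14.

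The OAS enzymes make 2′-5′ oligoadenylates that activate RNase L, and OASL is a family member without that activity. By the chosen probes, all 4 genes of the family were below 0 in MKN74 and above 0 in MKN45, with medians of -0.22 and 0.16. OASL had signals of 124 and 70.3 in MKN74, a log2 ratio of -0.82 ± 0.23, the lowest of the members with both dyes measured. In MKN45 its signals were 274 and 289.9, a log2 ratio of 0.08 ± 0.21. OAS1 was at -0.22 and 0.20, OAS2 at -0.01 and 0.46, and OAS3 at -0.22 and 0.12. The 2 other OAS2 probes, with Cy5 alone well above background in both lines, were at 0.13 and 0.42 in MKN74. They were at 0.30 and 0.15 in MKN45. A second OAS3 probe was at 0.07 ± 0.32 in MKN74, with both dyes measured, and at 0.52 ± 0.43 in MKN45, with Cy5 alone.

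MX1 and MX2 are dynamin-like GTPases that trap viral nucleocapsids. MX1 was at -0.12 ± 0.23 in MKN74 and 0.36 ± 0.21 in MKN45, whereas MX2 was at 0.07 ± 0.22 and -0.21 ± 0.37. The second MX2 probe was at -0.17 ± 0.29 and -0.33 ± 0.26, so that the probes had opposite signs in MKN74. GBP2, a guanylate-binding protein, was measured in MKN45 alone, at 0.14.

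ISG15 is a ubiquitin-like protein, UBE2L6 and HERC5 conjugate it to targets, and USP18 removes it. All 5 genes of the system were below 0 in MKN74, with a median of -0.23, and the median in MKN45 was 0.0017. HERC5, whose probe was printed 10 times, was at -0.50 in MKN74 with an SD of 0.06 over spots and at -0.16 in MKN45 with an SD of 0.11. ISG15 had signals of 10607 and 8222 in MKN74, a log2 ratio of -0.37 ± 0.21, and of 4309.8 and 4094 in MKN45, a log2 ratio of -0.07 ± 0.20. USP18 was at -0.10 and 0.00, UBE2L6 at -0.23 and 0.18, and HERC6 at -0.13 and 0.06.

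Among the membrane proteins, all 8 genes were below 0 in MKN74, with a median of -0.27, and 5 of 8 were above 0 in MKN45, with a median of 0.12. IFI6, a small membrane protein of the interferon response, had signals of 1398 with the negative control and 968 with SET7/9 siRNA in MKN74, and 148 and 225 in MKN45. The log2 ratios were -0.53 ± 0.21 and 0.60 ± 0.21, so that the ratios lay on opposite sides of 0 by more than their errors. The IFITM proteins keep viruses from fusing with endosomes. IFITM1 was at -0.22 and 0.22, also beyond its spot errors in opposite directions, but its second probe was at -0.45 ± 0.21 and 0.12 ± 0.20, within its error in MKN45. IFITM2 was at -0.22 and 0.13 and IFITM3 at -0.32 and 0.10. BST2 (tetherin), which holds budding virions at the cell surface, was at -0.35 and -0.18, and its second probe, at -0.41 ± 0.21 and -0.22 ± 0.21, was below 0 by more than its spot error in both lines. IFI27 was at -0.47 and -0.08, PLSCR1, a phospholipid scramblase, at -0.10 and -0.06, and LAMP3, a lysosomal membrane protein, at -0.11 and 0.40.

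PARP9 and DTX3L form a complex that ADP-ribosylates and ubiquitinates its targets, and the genes lie head to head on chromosome 3. PARP9 was at -0.29 in MKN74 and 0.20 in MKN45, whereas DTX3L was the one member above 0 by more than its spot error in MKN74, at 0.22 ± 0.21, and also exceeded it in MKN45, at 0.42 ± 0.21. PARP12, printed 10 times, was at -0.29 (SD over spots 0.05) and -0.03 (SD 0.04), and PARP14 was at -0.25 and 0.17.

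Among the other effectors, RSAD2 (viperin), an enzyme that makes a chain-terminating nucleotide, had signals of 65.9 and 39.2 in MKN74, a log2 ratio of -0.75 ± 0.24. Its second probe was on the other side of the cutoff in MKN74, at -0.45 ± 0.34. In MKN45 the chosen RSAD2 probe was also below 0, at -0.52 ± 0.51, with Cy5 alone well above background. CMPK2, a nucleotide kinase encoded beside RSAD2, was at -0.35 in MKN74 and 0.17 in MKN45. IFI16, a DNA sensor, had signals of 52.1 and 34.8 in MKN74, and at a log2 ratio of -0.58 ± 0.26 it lay, like IFIT1, just short of the 1.5-fold line of 0.585. XAF1, a proapoptotic protein, had signals of 20.3 and 12.6 in MKN74, a log2 ratio of -0.68 ± 0.46, with Cy5 alone well above background. IFI35 was at -0.20 and 0.05, ISG20, an exonuclease, at -0.01 and -0.16, SAMD9 at -0.11 in MKN74 with Cy5 alone, and EPSTI1 at -0.23 in MKN45. The 3 probes of SP100, a nuclear body protein, disagreed in signal and ratio, since the brightest, at 24842 with the negative control in MKN74, was at 0.01 and -0.01, another was at -0.38 and -0.14, and the third was at -0.24 in MKN74 and 0.61 in MKN45, past the cutoff.

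Of the transcription factors of the response, IRF9, the DNA-binding subunit of ISGF3, had signals of 929 and 943 in MKN74, a log2 ratio of 0.02 ± 0.20, and of 207 and 314 in MKN45, a log2 ratio of 0.60 ± 0.21. STAT2 was at -0.16 and -0.12, and IRF1 at 0.03 and 0.14. IRF7, which drives interferon genes, was at -0.06 ± 0.20 in MKN74.

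Between the cell lines, 31 of the 34 genes had a higher knockdown ratio in MKN45 than in MKN74, and the median difference was 0.35 log2 units, beside -0.0023 over all genes. In 19 of the 34 the difference was larger than the combined spot error, always with the higher ratio in MKN45, whereas 6.73% of all genes were higher in MKN45 by that measure. At least a 1.5-fold difference was reached by 3 genes with the higher ratio in MKN45, where 1.49% of all genes were, and by 0 with the lower ratio, where 0.824% were. These were IFI6 with a difference of 1.13 ± 0.30, OASL with 0.90 ± 0.31 and IFIT2 with 0.78 ± 0.33 (combined spot errors). By sign, 19 of the 34 were below 0 in MKN74 and above 0 in MKN45, 10 were below 0 in both, 3 were above 0 in both (DTX3L, IRF1 and IRF9), and 2 were above 0 in MKN74 and below it in MKN45 (MX2 and SP100, whose other probes gave other signs). With 1 array per line, these differences have no replicate check.

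With both arrays taken as replicates of 1 response, limma called 0 of 44 member probes at an adjusted p below 0.05. It called 0.0% of all 19595 probes. An unadjusted p below 0.05 was reached by 7 of the 44 member probes, beside 2569 of the 19595 probes. The share of member probes was thus near that of all probes. The 7 were probes of RSAD2, IFIT1, IFIT3, DTX3L and MX2, and both probes of BST2. The test had 1 residual degree of freedom. After normexp background correction and loess it called 3 of 44 member probes, of BST2 and DTX3L, or 6.82%, beside 7.95% of all probes.

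The level differences between the cell lines covered a wider range than the knockdown ratios, from -5.73 to 1.44 log2 units in Cy3 beside -0.82 to 0.22 for the ratios in MKN74 and -0.38 to 0.60 in MKN45. Levels are compared within a gene, as log2 signal minus each array's 75th percentile, and a difference is given for both dyes. The median difference, MKN45 minus MKN74, was -0.85 in Cy3 over 34 genes and -0.66 in Cy5 over 35, beside 0.020 and 0.049 over all genes. At least 2-fold lower in MKN45 in both dyes were 14 of the 34, where 16.6% of all genes were, and at least 2-fold higher were 6, where 15.1% were. The sign of the difference was the same in both dyes for 32 of the 34, beside 94.6% of all genes. The counts of measured markers of other cell types are given above, and the part of such cells in these differences was not tested.

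**Figure D2:**
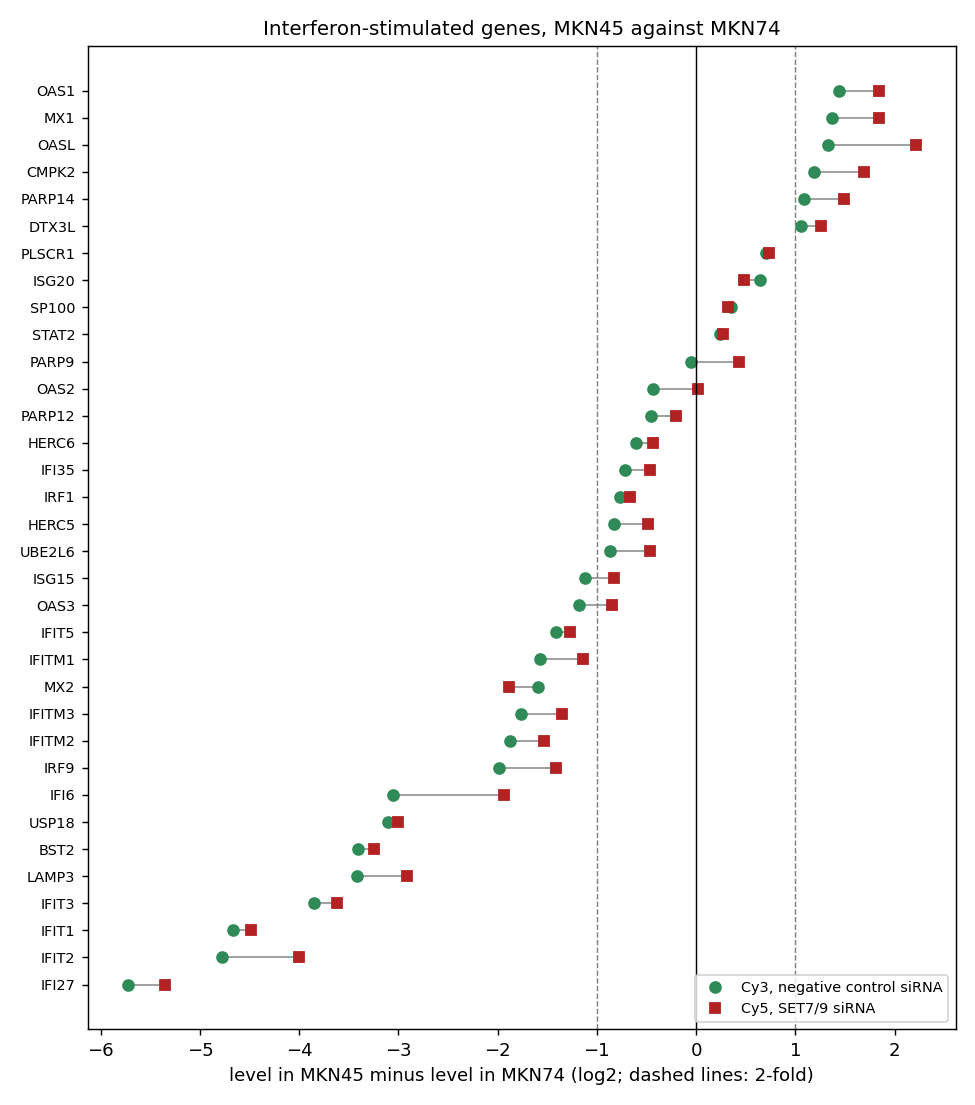
Level in MKN45 minus level in MKN74 (log2, x axis) for the 34 interferon-stimulated genes measured in both dyes on both arrays, in Cy3 (negative control siRNA, green circles) and Cy5 (SET7/9 siRNA, red squares), sorted by the Cy3 value. Dashed lines mark 2-fold; IFI27 lies lowest and OAS1 highest in Cy3.

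The 14 genes lower in MKN45 were IFIT1, IFIT2, IFIT3, IFIT5, MX2, USP18, IFITM1, IFITM2, IFITM3, BST2, IFI6, IFI27, LAMP3 and IRF9. IFI27 had signals of 5822 and 4208 in MKN74 and of 96.6 and 91.3 in MKN45, a level 53.1-fold lower in Cy3 and 40.9-fold lower in Cy5. IFIT2 was 27.5-fold and 16.1-fold lower, and IFIT1 25.5-fold and 22.3-fold lower. All 4 IFIT genes, which lie together on chromosome 10, were lower in MKN45. IFIT3 had signals of 389 and 286 in MKN74 and of 23.8 and 20.6 in MKN45, 14.4-fold and 12.3-fold lower, whereas IFIT5, with 1042 and 975 in MKN74 and 344 and 359 in MKN45, was 2.67-fold and 2.41-fold lower.

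BST2 had signals of 10128 and 7942 in MKN74 and of 838 and 739.6 in MKN45, 10.6-fold and 9.52-fold lower, and its second probe was 12.4-fold and 11-fold lower. LAMP3, with signals of 2210.3 and 2046 in MKN74 and of 182 and 241 in MKN45, had level differences of -3.42 log2 units in Cy3 and -2.91 in Cy5. USP18, the deconjugase of ISG15, with signals of 2516 and 2344 in MKN74 and of 258 in both dyes in MKN45, was 8.58-fold and 8.04-fold lower. IFI6 was 8.31-fold lower in Cy3 but 3.81-fold lower in Cy5. IFITM1 had signals of 7309.6 and 6271 in MKN74 and of 2159.9 and 2515 in MKN45, IFITM2 of 20957 and 17967 and of 5038 and 5502, and IFITM3 of 43361 and 34711 and of 11227 and 12073. These IFITM genes, neighbours on chromosome 11, were lower by 2.98-fold (IFITM1), 3.66-fold (IFITM2) and 3.40-fold (IFITM3) in Cy3 and by 2.21-fold, 2.89-fold and 2.55-fold in Cy5. IRF9 was 3.95-fold and 2.66-fold lower. MX2, with 70.4 and 74.1 in MKN74 and 20.6 and 17.8 in MKN45, was 3.01-fold and 3.68-fold lower, but its second probe was 1.36-fold and 1.21-fold higher in MKN45, so that the probes disagreed in direction.

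Some genes measured in a dye in MKN74 had no signal well above background in that dye in MKN45, so that only a bound can be given for it. For these the dim signal was set to the lowest signal called well above background in that dye and array, and the smaller of the bounds after Aquantile scaling and after scaling to the 75th percentile is given. IRF7 had signals of 6486 and 6228 in MKN74 and of 4.42 and 4.66 in MKN45, and was at least 360.0-fold lower in MKN45 in Cy3 and at least 621-fold in Cy5. One IRF7 probe was on the array, on chr11:612643-612702 of GRCh37. IFI44L was at least 10.5-fold and 10.8-fold lower, IFI44 at least 4.85-fold and 7.88-fold, and IFI16 at least 2.89-fold and 3.47-fold. RSAD2 was at least 3.66-fold lower in Cy3, and 3.53-fold lower in Cy5, which was measured in both lines. In Cy5, SAMD9 was at least 2.24-fold and XAF1 at least 1.26-fold lower.

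The 6 genes at least 2-fold higher in MKN45 were OAS1, OASL, MX1, PARP14, DTX3L and CMPK2. They made up 17.6% of the 34 genes, near the 15.1% of all genes. OAS1 had signals of 204 and 175 in MKN74 and of 487 and 559 in MKN45, 2.71-fold and 3.59-fold higher. OASL was 2.52-fold higher in Cy3 and 4.65-fold higher in Cy5. OAS2 and OAS3, which lie next to OAS1 on chromosome 12, did not share this, since OAS3 was 2.27-fold and 1.79-fold lower in MKN45 and OAS2 was 1.35-fold lower in Cy3 and 1.02-fold higher in Cy5. MX1 had signals of 62.3 and 57.3 in MKN74 and of 142 and 182 in MKN45, 2.59-fold and 3.58-fold higher. CMPK2 had 79.3 and 62 in MKN74 and 159 and 178 in MKN45, 2.27-fold and 3.24-fold higher. PARP14, at 331 and 278 in MKN74 and 619 and 695 in MKN45, was 2.13-fold and 2.82-fold higher. DTX3L, at 116 and 135 in MKN74 and 212 and 285 in MKN45, was 2.09-fold and 2.39-fold higher. GBP2, with signals of 3.33 and 2.15 in MKN74 that were not well above background, had 149 and 164 in MKN45, at least 6.67-fold and 12.7-fold higher. EPSTI1 was at least 2.36-fold and 3.47-fold higher.

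**Figure D3:**
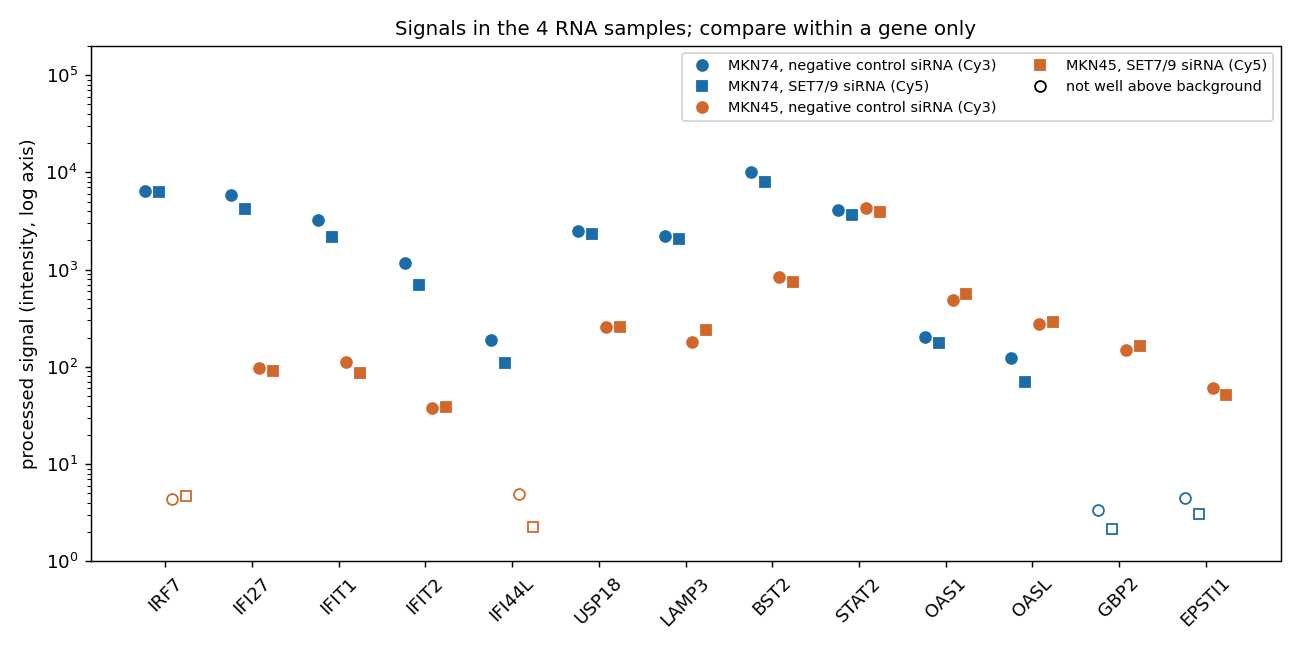
Processed signal on a log axis (y) in the 4 RNA samples for 13 interferon-stimulated genes (x), in MKN74 (blue) and MKN45 (orange), with negative control siRNA in Cy3 (circles) and SET7/9 siRNA in Cy5 (squares). Open symbols were not well above background; signals may be compared within a gene and not between genes. IRF7 stands at 6486 in MKN74 and 4.42 in MKN45 in Cy3, whereas STAT2 is near 4089 and 4263.

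The remaining genes lay closer together in the cell lines. STAT2 had signals of 4089 and 3649 in MKN74 and of 4263 and 3911 in MKN45. ISG15 was 2.17-fold lower in MKN45 in Cy3 and 1.78-fold lower in Cy5. By their chosen probes, the others with all 4 signals measured (PLSCR1, ISG20, SP100, PARP9, PARP12, HERC5, HERC6, IFI35, IRF1, UBE2L6 and OAS2) differed by 1.83-fold or less in Cy3. The second HERC6 probe was 2.37-fold lower in MKN45 in Cy3, where its MKN45 signal was not well above background. In Cy5 it was 1.91-fold lower.

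Level and knockdown ratio were set side by side. The median log2 ratio of the 14 lower genes was -0.27 in MKN74 and 0.04 in MKN45, and that of the 20 other genes -0.21 and 0.10. The genes with the response element core in a promoter, of which 18 were measured throughout, had a median log2 ratio of -0.29 in MKN74, with 17 of 18 below 0, and the 9 with a matched promoter and no core had -0.16, with 6 of 9 below 0. In MKN45 the medians were 0.02 and 0.14. The median Cy3 level difference was -1.15 for those with the core and -0.61 for those without. These shares describe 27 genes on 2 arrays and were not tested.

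Of the other genes of the pathway, 39 of 43 listed were on the arrays. Few ligands were detected, since 14 of the 17 ligand genes on the arrays, IFNB1 among them, had no signal well above background in either line. IL28A, an interferon lambda, was measured in both lines, with signals of 67.6 and 66.6 in MKN74 and of 21.6 and 25.2 in MKN45, and IFNA4 was measured in MKN45 alone. The measured genes, mostly receptors, kinases, transducers and regulators, had a median log2 ratio of 0.00038 in MKN74 over 23 genes and of 0.05 in MKN45 over 24, and 0 passed 1.5-fold with both dyes measured. IFNAR1 was at -0.31 and -0.02 and IFNAR2 at 0.32 and 0.33. The median Cy3 level difference of the pathway genes, MKN45 minus MKN74, was 0.12 over 23 genes, with 15 higher in MKN45.

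The genes of the RNA sensor list, which also held adaptors, had a median log2 ratio of -0.12 in MKN74 and 0.06 in MKN45 over 10 genes. Their median Cy3 level difference, MKN45 minus MKN74, was -1.13 by the chosen probes, with 6 of 10 genes lower in MKN45. DDX58 was higher in MKN45 by its chosen probe, at 0.58 in Cy3. Its second probe, measured in both dyes in both lines, was 16.2-fold lower in Cy3 and 9.81-fold lower in Cy5. TLR3, the endosomal receptor of double-stranded RNA, had signals of 119 and 74.4 in MKN74, a log2 ratio of -0.68 ± 0.22, and of 47.5 and 50.8 in MKN45, a ratio of 0.10. The adaptor TMEM173 (STING) had signals of 1229.9 and 1124 in MKN74 and of 31.1 and 36.7 in MKN45. The MHC class I genes, which interferons also raise, had a median log2 ratio of 0.06 in MKN74 over 15 genes and 0.12 in MKN45 over 19. By the chosen probes their median Cy3 level difference was 0.56, with 14 of 15 genes higher in MKN45. The chosen HLA-C probe, at 0.56, overlapped a probe of HLA-B in its coordinates, and the second HLA-C probe was at -0.11. UBD, a ubiquitin-like protein induced by inflammatory cytokines, had a log2 ratio of 1.41 ± 0.24 in MKN45 and was not measured in MKN74.

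**Figure D4:**
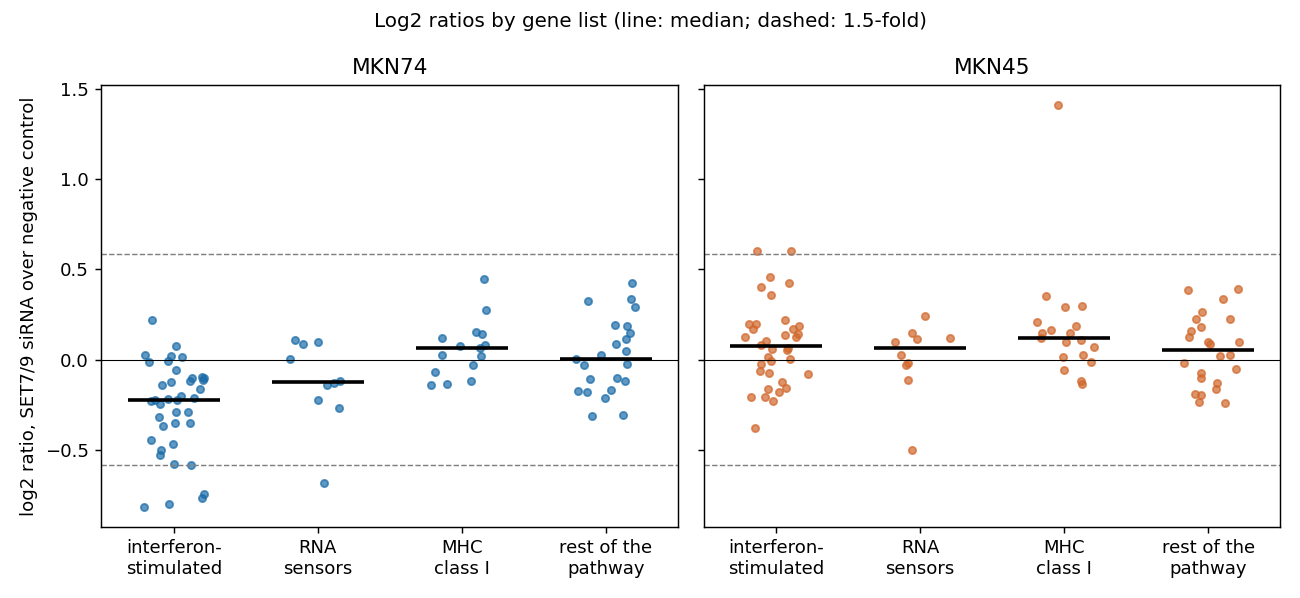
Log2 ratio of SET7/9 siRNA over negative control siRNA (y axis) for genes with both dyes well above background, by list (x axis), in MKN74 (left) and MKN45 (right); black lines are medians and dashed lines mark 1.5-fold. The interferon-stimulated genes have medians of -0.22 and 0.07, and UBD, at 1.41 in MKN45, stands highest.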

How the data were processed

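RNA was measured on 2 two-colour Agilent arrays, 1 per cell line. The authors deposited scanner files made with Agilent Feature Extraction 10.7.3.1. Per the file headers these give each spot's intensity in both dyes, raw as well as background-subtracted and dye-normalized, its log10 ratio (Cy5 to Cy3) and the ratio's error and p-value by the software's error model; that p-value is not reported. A deposited value table holds the ratios as log2, rounded. Probe coordinates are on GRCh37.

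Ratios were converted to log2, outlier spots (549 in MKN74, 534 in MKN45) were left out and spots of a probe averaged. Probes entered with 1 or both dyes well above background in 50% or more of their spots (20674 and 22830 probes). The pooled SD over repeated spots was 0.087 and 0.099 log2 units. Each gene had the probe with most dyes detected, then the brightest. The cutoff was 1.5-fold, and 2-fold in both dyes for levels. Bounds are the smaller of those after Aquantile and after 75th percentile scaling. limma 3.58.1 (R 4.3.3, Benjamini-Hochberg) was run on all 19595 probes and tested on simulated data; Python was 3.11.15. Every member was accounted for. Those past a cutoff are given with their signals, except IFI44, SAMD9 and EPSTI1, whose level differences are given as bounds only. Genes without a promoter entry, IFIT2, IRF7, OAS2 and OASL among them, were not searched. The members and lists were chosen with earlier results of these data known. Which SET7/9 siRNA was hybridised is not given in the sources used here. The number of arrays limits the precision. A gene of the pathway list is not reported here.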

Additional observations from a re-analysis of the deposited data

Results flagged for a closer look

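The chosen probes of IFI6 and IFITM1 lay on opposite sides of 0 in the cell lines by more than their spot errors, with every signal well above background. The log2 ratio of IFI6 was -0.53 in MKN74 and 0.60 in MKN45, and that of IFITM1 was -0.22 and 0.22, but the second IFITM1 probe was within its spot error in MKN45 (0.12 ± 0.20). Of all genes measured in both dyes, 12.3% were lower in MKN74 and 12% were higher in MKN45 by more than their spot error. The share of all genes past both errors in opposite directions was not counted. With 1 array per cell line the difference was not tested.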

How the results depend on the processing

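After normexp background correction and loess, the genes at least 1.5-fold lower in MKN74 went from 5 to 1 (IFIT2 at -0.65) and those higher in MKN45 from 2 to 0, the median in MKN74 moved from -0.22 to -0.13, that of the RNA sensors in MKN74 from -0.12 to -0.023, and limma called 3 of 44 member probes (6.82%, beside 7.95% of all probes). The normexp offset of 50 draws the ratios of dim probes toward 0. Under this processing 26 of the 34 genes measured throughout were below 0 in MKN74. The ratio was higher in MKN45 for 30 of the 34, with a median difference of 0.27. A 2-fold cutoff left 0 lower in MKN74 and 0 higher in MKN45. With no filter on dim probes, 3 of 46 members were lower and 3 higher in MKN45, beside 8.2% and 5.6% of all genes. The bounds on levels under both scalings were added after seeing the data, and Aquantile alone gave at least 488-fold in Cy3 for IRF7. The Cy3 level difference between the cell lines was -0.75 after normexp, loess and Aquantile and -1.03 with no scaling between arrays, and the Cy5 difference -0.84 with no scaling. Median centring, the deposited table, both dyes required, outlier spots kept and the median over a gene's probes kept the counts within 1.5 times and the directions of the members' medians; the looser filter for the difference, at least 1 dye on each array, was added after seeing the data and gave 0.35. Of 47 recomputed ratios of single named genes, 6 no longer passed the cutoff and 0 reversed. No paired analysis was possible because each cell line has 1 array. For the same reason leaving out an array was not possible, and the slide could not be a block. Signals near the background limit the dimmest genes, XAF1, SAMD9 and RSAD2 in MKN45 among them.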
